A study of Mus musculus with 48 samples.

Results

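The glutathione peroxidases *Gpx1*, *Gpx2*, *Gpx3* and *Gpx4* were followed in the liver and colon of mice that differed in selenium and folate supply. A probe was taken for a member when its accession carried that symbol in the RefSeq gene table, which gave 1 probe per gene. The members are 4 of 18434 genes named on the array and 4 of its 41174 probes, each printed as 1 spot. All mice were C57/BL6 offspring on a high-fat diet, sampled at 12 weeks of age and described as male in the study's methods. Selenium was present at 0.44 mg/kg in diet H and at 0.08 mg/kg in diet L. The folate contents of these diets were 2.4 and 0.4 mg/kg. Group names put the dam's diet, fed in gestation and lactation, before the diet of her offspring after weaning. HH mice thus stayed on diet H and LL mice on diet L, while LH and HL mice were switched at weaning. Liver RNA came from 5 HH, 6 HL, 6 LH and 6 LL mice, and colon RNA from 6 mice of each group, with no animal in both tissues. Selenium and folate changed together in every comparison, so their parts cannot be told apart, and litters are not given in the labels. The p-values measure the spread between these mice.

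Glutathione peroxidases reduce hydrogen peroxide and organic hydroperoxides with electrons from glutathione. The 4 members are selenoproteins, which carry selenium as selenocysteine in the active site. *Gpx1* encodes the widely expressed cytosolic enzyme, *Gpx2* the enzyme of the gastrointestinal epithelium, *Gpx3* the secreted enzyme of plasma, which is made largely in the kidney, and *Gpx4* the enzyme that reduces phospholipid hydroperoxides in membranes and protects cells from ferroptosis. In selenium deficiency *Gpx1* is known to lose transcript and activity early, whereas *Gpx2* and *Gpx4* rank high in the order in which selenoproteins are kept.

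The genes lie on different chromosomes in GRCm38.p6. *Gpx1* spans chr9:108339080-108340342, *Gpx2* chr12:76792335-76795554, *Gpx3* chr11:54902854-54910387 and *Gpx4* chr10:80047166-80056439. Because folate feeds the methyl groups that are placed on the cytosine of CG pairs, the promoters of the members with the largest tissue differences in opposite directions are printed from RefSeq, 300 bases each, with every CG in capitals. The *Gpx1* window is chr9:108338830-108339129 on the plus strand and the *Gpx2* window is chr12:76795505-76795804 on the minus strand.
Gpx1: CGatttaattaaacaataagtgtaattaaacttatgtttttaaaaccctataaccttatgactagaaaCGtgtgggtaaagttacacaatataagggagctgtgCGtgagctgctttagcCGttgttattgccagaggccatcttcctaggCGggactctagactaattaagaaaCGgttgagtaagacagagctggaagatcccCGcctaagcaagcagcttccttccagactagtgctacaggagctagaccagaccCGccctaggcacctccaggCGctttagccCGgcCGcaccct
Gpx2: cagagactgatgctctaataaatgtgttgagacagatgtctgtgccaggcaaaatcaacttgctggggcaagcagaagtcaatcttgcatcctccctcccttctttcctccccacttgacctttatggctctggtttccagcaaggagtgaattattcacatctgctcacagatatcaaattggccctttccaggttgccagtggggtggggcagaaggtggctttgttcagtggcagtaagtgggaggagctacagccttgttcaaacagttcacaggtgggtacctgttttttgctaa

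The *Gpx1* window held 11 CG pairs and the *Gpx2* window 0. A CG reads the same on both strands. At least 1 CG was present in 94.6% of the 32851 mouse promoter windows of this length, 60.4% held as few as *Gpx1* or fewer, and 5.43% held none. The *Gpx3* window held 13 CG pairs. Of the 4 windows that RefSeq gives for the starts of *Gpx4*, 3 held 26 to 31 and the other held 3. Methylation was not analysed here.

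RNA of each mouse was labelled with Cy3 and hybridised against a common Cy5 reference without a dye swap, so a level here is the log2 ratio of mouse over reference (a value of 1 is 2-fold over it), and a difference between groups is a difference of such ratios. The reference is described as multi-organ RNA in the labels and as pooled intestine and liver in the methods. Across the 48 arrays, 55.1 to 66.0% of liver spots and 66.8 to 73.7% of colon spots were well above background in Cy3. The members were well above background and unsaturated on all 48. The number of arrays limits the precision. The 8 hepatocyte markers averaged 1.79 in liver and -4.22 in colon, and 7 goblet cell markers -4.13 in liver and 0.85 in colon, so that each tissue carried the markers of its label. *Xist*, transcribed in female cells, was present in 2 liver and 6 colon samples, of which 1 and 3 lacked the Y-linked *Eif2s3y*. Each slide held 1 array of every group, all from one tissue.

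**Figure D1:**
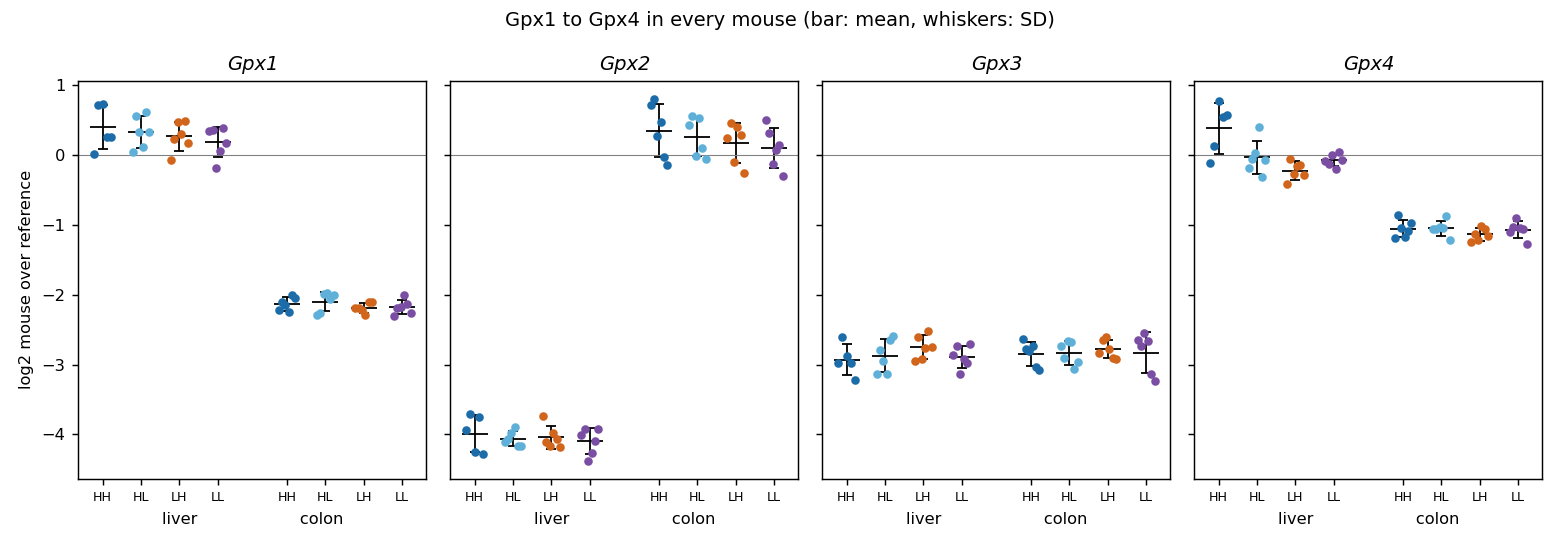
Log2 ratio of mouse over reference for the 4 members, a point for each mouse, by diet group in liver and colon; bars are group means and whiskers SD. *Gpx1* and *Gpx4* sit higher in liver, *Gpx2* higher in colon, *Gpx3* at about -2.8 in both, and the HH livers reach the highest *Gpx4* values.

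Between the tissues 3 of the 4 members differed, *Gpx1* and *Gpx2* by several times as much on the log2 scale as between any diet groups. *Gpx1* averaged 0.29 ± 0.24 (SD, n = 23) in liver and -2.15 ± 0.11 (SD, n = 24) in colon. The 23 livers lay between -0.18 and 0.73 and the 24 colons between -2.30 and -1.97, without overlap. The ratio was 5.44-fold higher in liver (log2 difference 2.44, SE 0.07, limma adjusted p = 2.14e-32). *Gpx2* ran the other way, with 0.22 ± 0.31 (SD, n = 24) in colon and -4.05 ± 0.18 (SD, n = 23) in liver. No colon was below -0.30 and no liver above -3.72. *Gpx2* was thus 19.3-fold higher in colon (log2 difference, liver minus colon, -4.27, SE 0.08, limma adjusted p = 1.82e-38).

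*Gpx4* was 2.13-fold higher in liver (log2 difference 1.09, SE 0.07, limma adjusted p = 1.15e-19). Its livers lay between -0.42 and 0.77 and its colons between -1.27 and -0.86. Over 7 alternative settings the *Gpx4* difference ran from 0.74, with median centring, to 1.09. That of *Gpx1* ran from 2.03 to 2.45 and that of *Gpx2* from -4.86 to -4.155, and all were called in each setting. *Gpx3* averaged -2.86 ± 0.20 (SD, n = 23) in liver and -2.82 ± 0.19 (SD, n = 24) in colon, and its values overlapped fully. The difference for *Gpx3* was -0.04, with a 95% interval of -0.17 to 0.10 (limma adjusted p = 0.666). With median centring in place of loess it was -0.41 and with the Cy3 channel alone -0.19 (limma adjusted p = 1.41e-05 and 0.00215), both under 1.5-fold. Over all probes 30.3% passed a fold over 1.5 with an adjusted p under 0.05 between the tissues, the rule by which a probe is called throughout, and *Gpx1*, *Gpx2* and *Gpx4* were among them. Each tissue had 6 slides of its own, and slide entered this fit as a random block.

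The level of *Gpx2* in liver needs its background beside it. Hepatocyte markers, among them *Alb* and *Ttr*, were well above background on all 24 colon arrays although colon is not their tissue. Being above background on this platform therefore does not show that a tissue makes the transcript. The mean Cy3 level of *Gpx2* was 9.87 in liver and 14.5 in colon (log2, normalised between arrays). Whether the liver signal comes from liver cells was not tested.

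**Figure D2:**
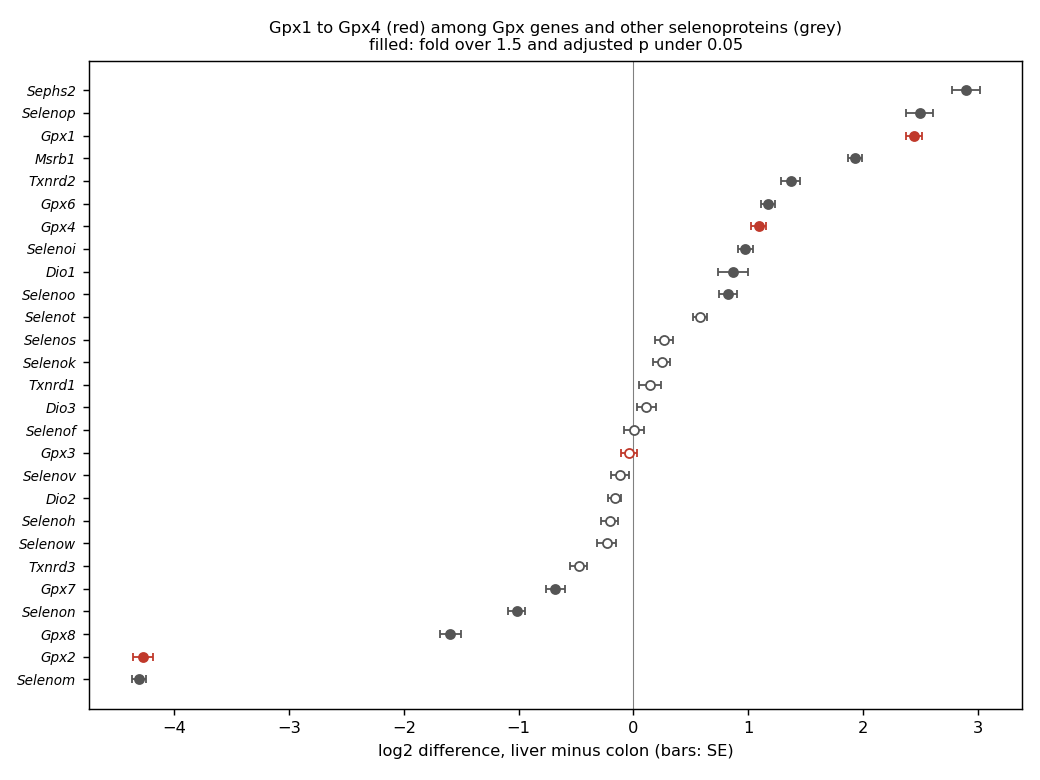
Log2 difference of liver minus colon, with its SE, for the 4 members (red), the other measured *Gpx* genes and 20 other selenoproteins (grey), ordered by value; filled points passed 1.5-fold and adjusted p under 0.05. *Gpx2* and *Selenom* lie far to the left near -4.3, *Gpx1* stands among the genes highest in liver, and *Gpx3* is at -0.04.

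Among other family members, *Gpx7* and *Gpx8*, which reside in the endoplasmic reticulum, were higher in colon (log2 difference, liver minus colon, -0.68 and -1.60), and *Gpx6* was higher in liver (1.17), all called (limma adjusted p = 4.56e-10, 2.29e-20 and 7.11e-22). No probe was matched to *Gpx5*. Of 20 other selenoproteins, 7 were called higher in liver, 2 higher in colon and 11 were not called. Over all probes 30.3% were called in either direction, which is the background for the counts here. *Selenop*, the plasma carrier of selenium made by the liver, differed by 2.49, and *Sephs2*, which makes the selenium donor for selenocysteine, by 2.90. *Selenom*, a protein of the endoplasmic reticulum, differed by -4.31. *Scly*, which recovers selenium from selenocysteine, differed by 2.54, and 4 of the 8 genes of selenocysteine machinery were called higher in liver, with 0 higher in colon.

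The enzymes around the members followed mixed directions between the tissues. Of 12 other peroxide and superoxide enzymes, 8 were called higher in liver, led by catalase (*Cat*, 4.36), and *Txn1* alone was called higher in colon (-0.69). Of 18 genes of glutathione turnover, 7 were called higher in liver, among them *Gclc* (1.90) and *Gclm* (1.61), the subunits of the rate-limiting enzyme of glutathione synthesis, and 3 higher in colon. Of 5 genes of NADPH supply, *Idh1* (1.38) and *Me1* (1.89) were called higher in liver, *G6pdx* (-2.30) and *Pgd* (-0.88) higher in colon, and *Idh2* was not called. Of 7 genes around ferroptosis, *Acsl4* (1.49) and *Aifm2* (0.69) were called higher in liver and the ferritin gene *Fth1* (-0.60) higher in colon. In all, 31 of these 73 genes were called higher in liver and 11 higher in colon. Of all probes, 30.3% were called, counting both directions together. Each listed gene stood by its brightest probe, while that share includes dim probes and probes without a gene name. The count and the share are therefore not like for like.

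The question of the design was whether low selenium and folate before or after weaning alters transcripts in the adult offspring. *Gpx4* in liver had the largest diet differences of the family. The HH livers had log2 ratios of -0.11, 0.13, 0.77, 0.54 and 0.57 in replicates 1 to 5, with a mean of 0.38 ± 0.36 (SD, n = 5). LH livers ran from -0.42 through a median of -0.22 to -0.05, HL livers from -0.31 through -0.06 to 0.40, and LL livers from -0.20 through -0.08 to 0.04. Only HH livers exceeded 0.40, 3 of them did, and the other 2 lay among the values of the other groups. Of the 6 LH livers, 5 were below the lowest HH liver.

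The mean of *Gpx4* was 1.52-fold lower in LH than in HH livers (log2 difference -0.60, SE 0.13, 95% interval -0.87 to -0.34). Its p ranked 24th lowest of 41171 probes in limma, with an adjusted p of 0.18, so it was not called. HL minus HH was -0.41 (SE 0.13, limma adjusted p = 0.952) and LL minus HH -0.46 (SE 0.13, limma adjusted p = 1). The exact permutation test over mice, two-sided and unadjusted, gave p = 0.00433 for LH, 0.0519 for HL and 0.0152 for LL against HH, where the smallest p it can give is 0.00216. It was run for 48 pairs of groups over the 4 members and both tissues, and none of the 48 would pass an adjustment for that number. The difference between LH and HL livers was -0.19, with an interval of -0.44 to 0.07 (limma adjusted p = 1).

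An unadjusted p under 0.05 was common in this comparison: 12% of all liver probes had one for LH minus HH, 4.37% for HL minus HH and 3.45% for LL minus HH, and 1 of the 4 members, *Gpx4*, had one in each. By fold and adjusted p, 0% of the probes and 0 of 4 members were called for any diet contrast in liver. Other settings called more probes for the interaction, with 0 members among them. They were 787 with all 8 groups and slide as a random block, 502 with array weights and 3 with slide as a replicate block. In the factorial contrasts, *Gpx4* differed by -0.32 on the log2 scale between dam diets L and H (SE 0.09, limma adjusted p = 0.999) against 4.16% of probes at p under 0.05. Between offspring diets it differed by -0.13 (SE 0.09, limma adjusted p = 1), against 1.37% of probes. The interaction was 0.56 (SE 0.18, limma adjusted p = 0.303), against 11.4% of probes. It is the gap between LL minus LH (0.15, limma adjusted p = 0.823) and HL minus HH (-0.41). With all 8 groups and the random slide block its limma adjusted p was 0.0155 at a fold under 1.5.

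**Figure D3:**
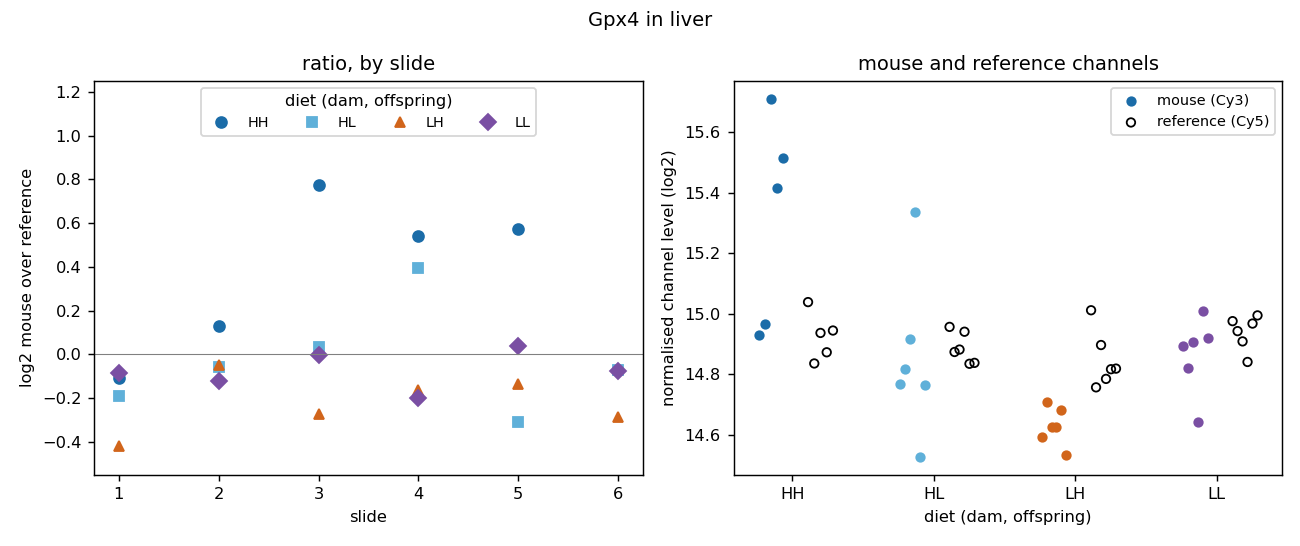
*Gpx4* in liver: left, log2 ratio of mouse over reference by slide and diet group; right, normalised log2 levels of the mouse channel (filled) and reference channel (open) of the same arrays. The HH liver with arrays on slides 3 and 6 is plotted as their mean on slide 3. HH is the highest group on slides 2 to 5, and the reference channel stays between 14.76 and 15.04 while the mouse channel of 3 HH livers exceeds 15.4.

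The HH liver hybridised on slides 3 and 6 was averaged and counted on slide 3, so slide 6 had no HH value. On each of the 5 slides with an HH value, the LH liver was below the HH liver, by -0.18 to -1.05 with a median of -0.70. The HL liver was below HH on 5 of 5 slides and the LL liver on 4 of 5. With slide as a replicate block, LH minus HH was -0.60 (limma adjusted p = 0.117). The reference channel of *Gpx4* varied little across the livers (SD 0.08, log2), against an SD of 0.32 in the mouse channel, whose means were 15.3 in HH, 14.9 in HL and LL and 14.6 in LH. The HH liver with 2 arrays gave 0.78 and 0.77 for *Gpx4*, and the mean of these was used. The study counts both as mice, and with that count LH minus HH was -0.67 (limma adjusted p = 0.0585) and 6 probes, none of them a member, were called. When all 8 groups of both tissues entered 1 fit with slide as a random block, both changes made together, *Gpx4* was called for LH minus HH (-0.60, limma adjusted p = 0.00112), as were 0.955% of all probes. The spread within groups was 0.22 in liver and 0.11 in colon (pooled SD).

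Some cell type markers also differed between these liver groups. Over all liver probes, 12% had an unadjusted p under 0.05 for LH minus HH. The mean of 8 hepatocyte markers ranged from 1.40 to 1.73 in HH, 1.36 to 2.02 in HL, 1.80 to 2.14 in LH and 1.53 to 1.97 in LL livers. It was higher in every LH than in every HH liver. Of the 8, 4 had an unadjusted limma p under 0.05 and higher values in LH than HH, led by the fibrinogen gene *Fgb* (log2 difference 0.52, limma adjusted p = 0.198), and 0 were called. Across the 23 livers *Gpx4* and this mean had a Pearson correlation of -0.64 (Spearman -0.55, and -0.71 after slide means were removed). The correlation was -0.49 without the 2 livers whose marker mean lay furthest from its median. Of 6 lymphocyte markers, 3 were lower in LH at an unadjusted p under 0.05, while *Cd3e* went the other way (0.18, limma adjusted p = 0.619). The mean of the 6 ranged from -0.51 to -0.28 in HH and from -0.77 to -0.38 in LH. Of 7 macrophage markers 1 was lower (median difference -0.29), with a list mean of 1.07 to 2.70 in HH and 1.08 to 2.23 in LH. Of 3 erythroid markers 1 was lower (median -0.19) and of 7 goblet markers 1 (median -0.12). The 4 acinar pancreas markers had a median difference of -0.43 with 0 under that p. Absorptive epithelium, smooth muscle, enteric neuron, adipocyte and kidney tubule markers also had 0 under it, with median differences from -0.13 to 0.055. In bulk tissue, fewer cells of a type and less RNA per cell cannot be told apart, and the part of cell composition in the *Gpx4* differences was not tested.

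The other members had smaller differences between diets in liver. *Gpx1* averaged 0.40 ± 0.31 (SD, n = 5) in HH, 0.33 ± 0.23 (SD, n = 6) in HL, 0.27 ± 0.21 (SD, n = 6) in LH and 0.19 ± 0.22 (SD, n = 6) in LL livers. All groups overlapped. LL minus HH, the contrast of lifelong low against lifelong high supply, was -0.21 with a 95% interval of -0.50 to 0.08 (limma adjusted p = 1). This interval does not reach a 1.5-fold fall. *Gpx2* differed from HH by -0.11 to -0.05 and *Gpx3* by 0.04 to 0.18 across the 3 other groups, with limma adjusted p from 0.562 to 1. The *Gpx2* difference of LH minus HH turned to 0.088 with median centring and to 0.019 without the 4 arrays of least spread or without HH replicate 2.

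**Figure D4:**
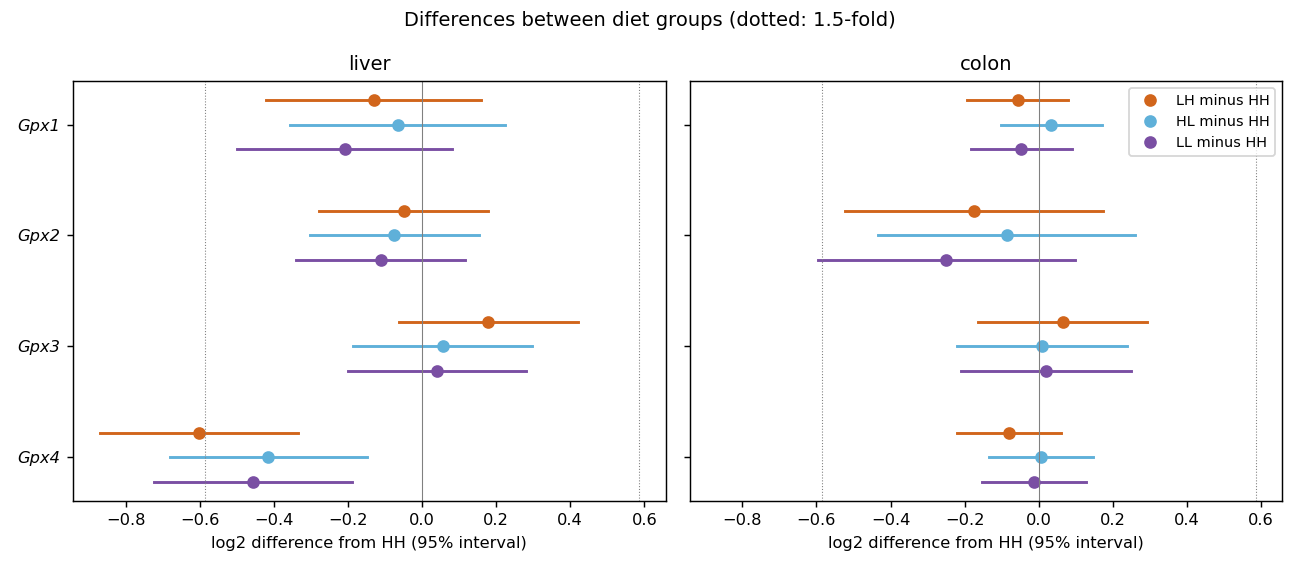
Log2 differences of the LH, HL and LL groups from HH with 95% intervals, for the 4 members in liver and colon; dotted lines mark 1.5-fold. The 3 *Gpx4* intervals in liver lie below 0, and every other interval includes it.

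In colon the largest difference of a member from HH was -0.25 on the log2 scale, and 0% of probes were called in any contrast. *Gpx2*, the member proper to this epithelium, averaged 0.35 ± 0.38 (SD, n = 6) in HH, 0.26 ± 0.28 (SD, n = 6) in HL, 0.18 ± 0.29 (SD, n = 6) in LH and 0.10 ± 0.29 (SD, n = 6) in LL colons, and all groups overlapped. LL minus HH was -0.25, with an interval of -0.60 to 0.10 (limma adjusted p = 1). With slide as a replicate block the limma adjusted p was again 1, but *Gpx2* then had an unadjusted p under 0.05 for LL minus HH, LH minus HH and dam diet, as had 1415, 3326 and 2230 of 41173 probes. On 5 of 6 slides the LL colon was below the HH colon. LL colon replicates 1 and 3, with *Xist* and without *Eif2s3y*, were at 0.51 and -0.12. For *Gpx1*, *Gpx3* and *Gpx4* the differences of LH, HL and LL from HH lay between -0.08 and 0.06. For *Gpx4* the interval of LH minus HH, -0.22 to 0.06, left out the liver value of -0.60. Without the block an unadjusted p under 0.05 occurred for 0 of 4 members in each colon contrast, against 3.24% of probes for LH minus HH, 1.46% for HL minus HH, 1.72% for LL minus HH, 2.11% for dam diet, 2.03% for offspring diet and 1.79% for their interaction.

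The difference of *Gpx4* between the tissues in LH minus HH was -0.52 (SE 0.13, 95% interval -0.78 to -0.25, limma adjusted p = 0.196), against 11.3% of probes with p under 0.05 and 0% called. After adjustment the tissues were not shown to differ in the *Gpx4* response. For *Gpx1*, *Gpx2* and *Gpx3* the same difference was -0.07, 0.13 and 0.10.

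Slide accounted for more of the spread than diet for several members. In colon, slide means held 74% of the variance of *Gpx2* and 76.4% of that of *Gpx3*, against 9.68% and 1.81% for diet groups. *Gpx2* colons of slide 12, the slide with the lowest mean, lay between -0.30 and -0.05. Those of slide 8, with the highest mean, lay between 0.31 and 0.80, without overlap. *Gpx4* in liver was the reverse, with 53.2% for diet and 16.2% for slide. In liver the shares for slide were 34.9% for *Gpx1*, 32.5% for *Gpx2* and 40% for *Gpx3*. These shares are descriptions, and what differed between slides was not tested.

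Among 73 measured genes around the members, 0 were called for a diet contrast in either tissue. For LH minus HH in liver, 10 of the 73 (13.7%) had an unadjusted p under 0.05, close to the 12% of all probes, 7 higher and 3 lower in LH. Of 20 other selenoproteins 3 were higher and 1 lower at that level. *Selenow*, a small selenoprotein sensitive to selenium supply, was -0.32 ± 0.12 (SD, n = 5) in HH and -0.74 ± 0.22 (SD, n = 6) in LH livers, a difference of -0.42 (limma adjusted p = 0.278). *Txnrd3*, a thioredoxin reductase, had a difference of 0.34 (limma adjusted p = 0.295). *Sephs2* and *Selenos*, named after their values were seen because the plot of these genes labels them, had 0.57 and 0.28. Among the 8 genes of selenocysteine machinery, *Sepsecs*, the enzyme that forms selenocysteine on its tRNA, had 0.36 (limma adjusted p = 0.292) and *Scly* 0.25 (limma adjusted p = 0.432).

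**Figure D5:**
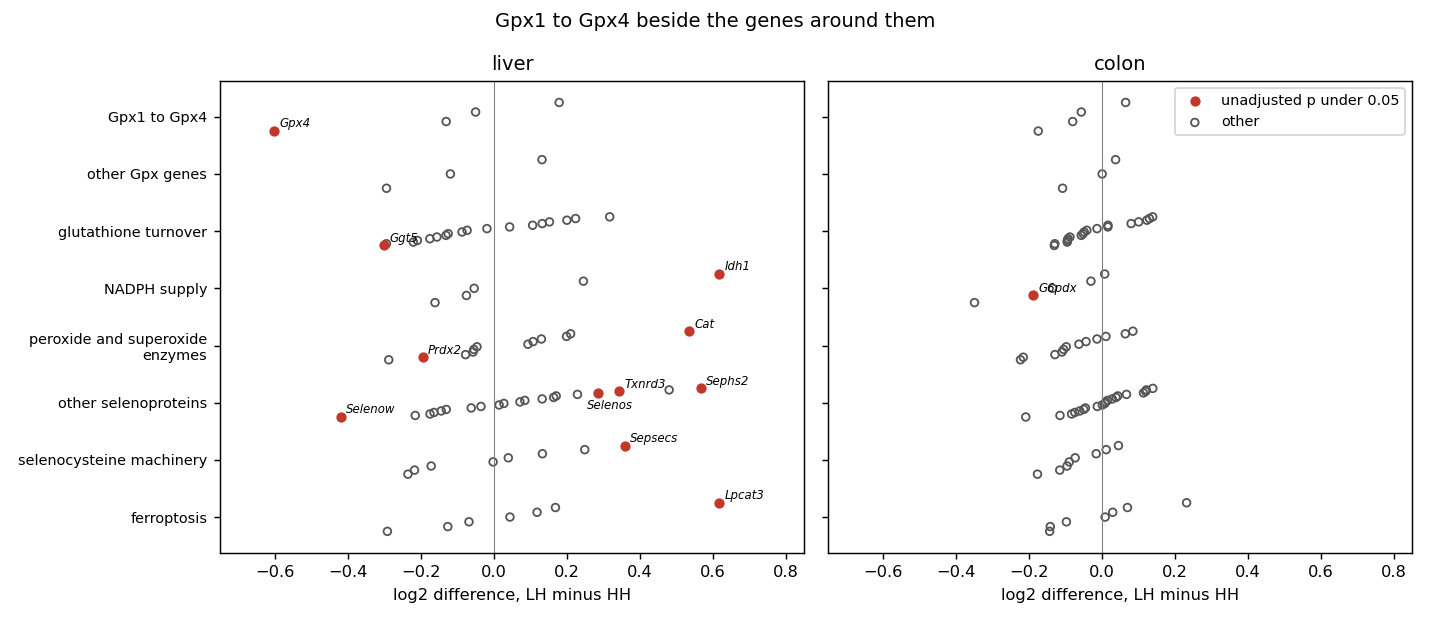
Log2 differences of LH minus HH in liver and colon for the 4 members and 73 genes around them, by list; red points have an unadjusted limma p under 0.05 and are named. In liver *Gpx4* (-0.60) lies at the left edge and *Idh1*, *Lpcat3*, *Sephs2* and *Cat* at the right, while the colon values lie between -0.35 and 0.23.

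Among enzymes of peroxide removal and NADPH supply, 2 had higher values in LH than HH livers at an unadjusted p under 0.05 and 1 had lower. *Cat*, catalase of peroxisomes, was 1.23 ± 0.27 (SD, n = 5) in HH and 1.77 ± 0.29 (SD, n = 6) in LH, a difference of 0.53 (limma adjusted p = 0.307). *Idh1*, which makes cytosolic NADPH, differed by 0.62 (limma adjusted p = 0.31) and *Idh2*, its mitochondrial counterpart, by 0.25 (limma adjusted p = 0.71). *Prdx2*, a peroxiredoxin abundant in red cells, differed by -0.20 (limma adjusted p = 0.336). Around ferroptosis, *Lpcat3*, which places polyunsaturated acyl chains in phospholipids, differed by 0.62 (limma adjusted p = 0.313) and the iron exporter gene *Slc40a1* by -0.29 (limma adjusted p = 0.458). In glutathione turnover *Ggt5* had -0.30 (limma adjusted p = 0.384) and *Gclm* 0.32 (limma adjusted p = 0.425). *Gpx7* (-0.29) and *Gpx6* (0.13) had p above 0.05.

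In each of the other liver contrasts 3 of 73 genes (4.11%) had an unadjusted p under 0.05. This is near the share of all probes, 4.37% for HL minus HH and 3.45% for LL minus HH. The genes were *Sepsecs* (0.39), *Idh1* (0.51) and *Ggt5* (-0.29) for HL minus HH, and *Selenon* (-0.26), *Selenow* (-0.34) and *Prdx2* (-0.18) for LL minus HH. *Selenow* thus had a negative difference from HH in each diet group, as *Gpx4* did, with -0.21 in HL. These contrasts share the 5 HH livers. In colon the counts were 1 of 73 for LH minus HH (*G6pdx*, -0.19), 1 for LL minus HH (*Gpx7*, -0.12) and 0 for HL minus HH. The shares of all colon probes in these contrasts were 3.24%, 1.72% and 1.46%.

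The named genes whose log2 ratios followed a member most closely differed between the tissues. Over 23 livers and 16925 probes, *Gpx4* was closest to *Ndufs4*, a subunit of respiratory complex I, with a Pearson correlation of 0.91 (Spearman 0.88, and 0.95 after slide means were removed), and to *Mrpl11*, a mitochondrial ribosomal protein gene, with 0.86. LH minus HH was -0.42 for *Ndufs4* and -0.28 for *Mrpl11* (limma adjusted p = 0.18 and 0.225). Both genes were picked by their correlation with *Gpx4* over the same livers, so these differences are not independent of that of *Gpx4*. *Gpx1* was closest to *Cd74* (0.80) and *Hsd17b6* (0.79), and *Gpx3* to *Cndp2* (0.89) and the mitochondrial thiolase gene *Acaa2* (0.87). *Gpx2* in liver was closest to *Spink4* (0.89) and *Mptx1* (0.89), which are known from intestinal epithelium. It also correlated with the means of some marker lists of other organs, at 0.72 for goblet cells, 0.71 for absorptive colon epithelium, 0.68 for smooth muscle and 0.78 for kidney tubule. Other lists had lower values, among them 0.49 for lymphocytes, 0.32 for enteric neurons, 0.13 for adipocytes and -0.01 for acinar pancreas (Spearman 0.28). The goblet, absorptive epithelium, smooth muscle and kidney markers, like *Gpx2*, were low in liver, but so were those of acinar pancreas (mean -2.62). The points share the array and its reference channel.

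In colon, over 24 mice and 20319 probes, *Gpx2* was closest to *Ufsp2* (0.85) and to *Tff3*, the trefoil factor of goblet cells (0.85). After slide means were removed these were 0.54 and 0.71. *Gpx3* was closest to *Mindy2* (0.92) and *Dbt* (0.92), which became 0.62 and 0.63. *Gpx1* was closest to *Apoc1* (0.72) and *Pde4b* (0.72), and *Gpx4* to *Dgat2* (0.77) and to *Txnrd2*, the mitochondrial thioredoxin reductase and itself a selenoprotein (0.75). In liver the members' own 6 pairwise Pearson correlations ran from -0.35 (*Gpx3* with *Gpx4*) to 0.52 (*Gpx1* with *Gpx3*), and in colon from -0.33 to 0.42.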

How the data were processed

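Liver and colon RNA of C57/BL6 mice was hybridised on 48 two-colour Agilent arrays, 4 to a slide. The deposited scanner files hold intensity values per spot from Feature Extraction 10.10.1.1, and the table of log2 ratios deposited by the authors was made, per the submitters' processing notes, with limma and R 3.0.2. Here the median spot and local background intensities were corrected with normexp (offset 50) and normalised by global loess. Beforehand, the local background of spots darker than it was replaced by that array's median background. Without that step 4 arrays had a compressed spread (SD 0.53 to 0.611 against 0.811 to 0.944). Control spots and outlier spots were left out, and the log2 ratio was taken as mouse (Cy3) over reference (Cy5). Any dye effect is therefore part of a level and cancels between groups. Both HH liver arrays of one animal (correlation 0.805, against at most 0.261 for other HH pairs) were averaged.

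Groups came from the labels. Each tissue was fitted with limma 3.58.1 in R 4.3.3 over its 4 groups, with Benjamini-Hochberg adjustment over all probes, and liver and colon were compared over 8 groups with slide as a random block (correlation 0.206). A probe was called at a fold over 1.5 with an adjusted p under 0.05. On simulated liver data for LH minus HH (41171 probes), 32% of probes changed by 0.6 on the log2 scale were called and 94% of those changed by 1. The simulated probes and mice were independent, and changes of 1.5 and 2 were also in that fit. A change of 0.6 lies near the fold threshold. These rates therefore do not give the power for *Gpx4*. Alternatives covered background correction, normalisation, slide, array position, weights, dim probes, groups in the fit, the test and single mice. Genes named were the members, every called gene of a list or else the 2 of lowest p, and the 2 most correlated named genes per member and tissue, with exceptions as stated. The members and lists were chosen with earlier results of these data known. The replicate number is the slide in each tissue, which is the source of the pairing. The averaged HH liver counted as slide 3 wherever slide was used, which left slide 6 without an HH value.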

Additional observations from a re-analysis of the deposited data

How the results depend on the processing

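Over 23 alternative settings, 543 recomputed values kept their direction and side of the threshold, and 10 did not. *Gpx2* in liver, LH minus HH, turned to 0.088 with median centring and to 0.019 without the 4 arrays of least spread. *Gpx4* in liver, LH minus HH, was called with all 8 groups in 1 fit and slide as a random block (-0.60, limma adjusted p = 0.00112), so that the members called numbered 1 in place of 0. The exact permutation test gave it an unadjusted p of 0.00433 (-0.60), which an adjustment over the 48 tests would not keep. With the processing and fit otherwise as reported, an unadjusted p under 0.05 as the threshold gave 1 member in liver for each of LH, HL and LL minus HH, dam diet and the interaction. Under other settings that number was 0 to 2. The cause was not tested. Over the other alternatives *Gpx4* LH minus HH ran from -0.68 to -0.50, with limma adjusted p from 0.00112 to 0.297 over all of them. With slide as a replicate block, *Gpx4* was -0.60 for LH, -0.41 for HL and -0.45 for LL minus HH (limma adjusted p = 0.117, 0.766 and 0.999). The block changed no call of a member at a fold over 1.5 and adjusted p under 0.05. For the interaction in liver 3 probes were then called, none of them a member. Leaving out 1 mouse at a time, *Gpx4* LH minus HH ran from -0.73 to -0.50 (limma adjusted p 0.0766 to 0.386), and *Gpx2* LH minus HH from -0.12 to 0.019, turning sign without HH replicate 2 (0.019) or 4 (0.0078). No call changed in these. The combinations of slide with no background correction and with the deposited ratios were chosen after seeing the data. The number of arrays limits what smaller differences can show.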
